A study of Mus musculus with 9 samples.

Results

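Macrophages that take up aged red cells break down hemoglobin, free the iron from heme, and then store it or send it back to the blood. The 10 genes described here cover these steps in F4/80+CD11b+ macrophages sorted from mouse liver at 0, 24 and 48 h following partial hepatectomy (PHx), an operation that takes out part of the liver. They were chosen by name, with earlier results of these data known. Cd163 stands for hemoglobin uptake, Hmox1 and Blvrb for heme breakdown, Fth1 and Ftl1 for iron storage, and Slc40a1 and Slc11a1 for iron transport. Tfrc stands for iron uptake, Spic for the control of this program, and Hpgd is a prostaglandin enzyme set beside them. All 10 were found among the 56691 genes of the deposited count table, and all 10 passed the filter on low counts. The mice were male C57BL/6 animals with no other genotype or treatment given for the sequenced cells, their livers were dissociated by collagenase perfusion, and each time was measured in 3 RNA libraries. Whether the 3 libraries per time stem from different animals is stated nowhere in the sources used, and a p-value therefore covers library-to-library spread alone, which may be technical. In the figures and text, 0 h is the first time given in the labels, and a level is CPM, the count of a gene relative to a fixed total per library, with the totals scaled by TMM, a method that sets the bulk of genes equal between libraries.

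In the liver, Kupffer cells, the resident macrophages, are known to share with macrophages of the spleen and bone marrow the clearing of old red cells. Hemoglobin bound to haptoglobin enters through CD163, heme oxygenase (Hmox1) opens the heme ring and releases iron, carbon monoxide and biliverdin, and biliverdin reductases turn the pigment into bilirubin. Iron that is kept is held in ferritin shells built of heavy (Fth1) and light (Ftl1) chains, and iron that is released leaves through ferroportin (Slc40a1), the only known iron exporter of mammalian cells, which the liver hormone hepcidin removes from the surface.

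Ferritin and the transferrin receptor are classic cases of control by iron after transcription. Their mRNAs carry iron-responsive elements, short hairpins that the iron regulatory proteins bind when iron is scarce. In the 5′ untranslated region (UTR) such a hairpin blocks translation, and in the 3′ UTR of Tfrc the hairpins protect the mRNA from decay. The elements are shown because the control they exert on Tfrc acts on the mRNA level that was measured here, whereas the control of Fth1 and Ftl1 acts on translation and is not read by these data. They were found in GENCODE M21 transcripts (mouse build GRCm38) as a C, a stem of 5 bases, a loop of CAGTG and A, C or T, and 5 bases that pair with the stem, G with T allowed. Each line gives 30 bases, 5′ to 3′ in DNA letters, with the loop of the hairpin in capitals.
Fth1 5′ UTR element: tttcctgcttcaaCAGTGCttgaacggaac
Ftl1 5′ UTR element: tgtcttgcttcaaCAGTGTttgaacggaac
Tfrc 3′ UTR element 1: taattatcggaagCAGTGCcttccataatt
Tfrc 3′ UTR element 2: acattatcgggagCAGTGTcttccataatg
Tfrc 3′ UTR element 3: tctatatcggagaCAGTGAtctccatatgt
Tfrc 3′ UTR element 4: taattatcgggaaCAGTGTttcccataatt
The Fth1 element lies in exon 1 at chr19:9982731-9982760 on the plus strand, and the Ftl1 element in exon 1 at chr7:45459779-45459808 on the minus strand. The 4 Tfrc elements lie in exon 19 on the plus strand, at chr16:32631218-32631247, chr16:32631597-32631626, chr16:32631662-32631691 and chr16:32631709-32631738. Only these 3 members were searched, so whether the others, Slc40a1 among them, carry such elements is not shown here. The same letters and pairing occurred in the 5′ UTR of 0.110% of 20916 protein-coding genes and in the 3′ UTR of 0.475% of 21039, regions that differ in length between genes. No source used here names the build behind the deposited counts, and these positions belong to the reference.

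The library totals were 53297943 to 67951168. At 48 h the libraries stood apart from the other times: mitochondrial transcripts made up 7.06% to 17.9% of a library, against 2.37% to 4.53% before, and the number of genes with a count was 20549 to 22986, against 23240 to 26767. The markers of the gate were present in every library, with Adgre1, which encodes F4/80, at 63.6 to 221 CPM and Itgam, which encodes CD11b, at 10.8 to 98.6 CPM. Itgam fell from 0 h to 48 h by 1.62 on the log2 scale (edgeR quasi-likelihood test, adjusted p = 0.0061), and Adgre1 differed by -0.13 (adjusted p = 0.857). Of the 8 macrophage markers 5 fell (Itgam, Lyz2, Fcgr1, Cd68 and Ptprc) and 1 rose (Mertk). Adgre1 and Csf1r did not pass the test. The summed level of the 8 was 63967 to 81658 CPM at 0 h and 10330 to 24140 CPM at 48 h. A sum follows the most abundant genes of its list, and Adgre1 and Itgam, at the levels above, are a small part of this one. Several lists of other cells were higher at 48 h. All 13 tested liver endothelial markers rose, from a summed 299 to 337 CPM at 0 h to 10077 to 11022 CPM, and 0 of them was at 0 at any time. So did 8 of 9 B cell markers (summed 15.04 to 38.5 and then 385 to 829 CPM) and 7 of 9 T and NK cell markers (3.54 to 11.2 and then 71.8 to 155 CPM). Of 12 erythroid markers 8 rose (summed 7981 to 17889 and then 42092 to 169430 CPM). The log2 fold changes of Slc4a1 and Tal1 were 2.74 and 2.23, and those of Klf1 and Ermap -2.68 and -7.05. These did not pass the test (edgeR adjusted p = 0.0612, 0.188, 0.385 and 0.0559), and Ermap was at 0 in every 48 h library. Of the monocyte markers 8 of 10 fell, and of the Kupffer cell markers 6 of 12 rose. In the other lists 1 of 12 hepatocyte markers rose and 1 fell, and 2 of 11 neutrophil markers rose and 2 fell. Among stellate cell markers 1 of 8 rose and 2 fell, and 2 of 6 platelet and 2 of 10 dividing cell markers fell. Over all tested genes 9.86% were called higher at 48 h against 0 h and 8.95% lower. At 24 h all 13 endothelial markers already lay above every 0 h library (summed 525 to 935 CPM), and 1 of them passed the test. So did 9 of 12 Kupffer cell and 6 of 11 neutrophil markers lie above, with 0 past the test. Of the dividing cell markers 8 of 10 lay below, and 1 passed. Over all genes 8.37% lay above and 8.92% below, and 0.0495% were called higher and 0.0297% lower. The plot of marker sums shows 9 of the lists by library. The lists that differed at 24 h or 48 h did so beside the differences of the members given below, and their part in those results was not tested. In bulk RNA, fewer cells of a type and less RNA per cell cannot be told apart.

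**Figure D1:**
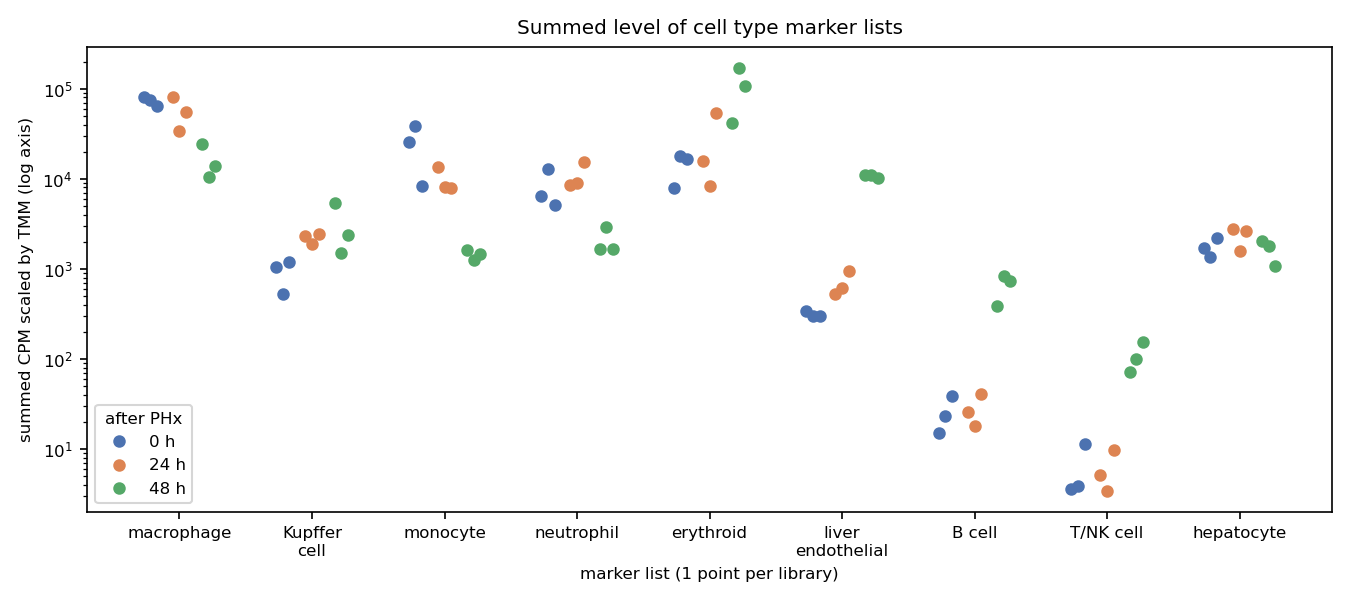
Summed CPM, scaled by TMM, of the measured genes of 9 cell type marker lists (log axis), 1 point per library and 3 libraries per time after PHx. At 48 h the endothelial sums lie between 10077 and 11022 and the monocyte sums between 1252 and 1602, with no overlap with the earlier times. A sum follows the most abundant genes of its list.

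Per kb of merged exon, the 0 h levels of the 10 genes spanned a wide range. Ftl1 had the highest mean, 38930 CPM per kb, followed by Fth1 with 5028 and Hmox1 with 210. Slc11a1 (53.5), Blvrb (39.4) and Hpgd (26.2) were intermediate, and Slc40a1 (3.35), Spic (2.53), Cd163 (1.89) and Tfrc (0.781) were lowest. The ferritin mRNAs together made up 5.78% to 6.87% of a library at 0 h, 5.37% to 6.52% at 24 h and, in the last libraries, 1.01% to 1.96%. The coefficient of variation of the members over the 3 libraries had a median of 23.6% at 0 h, 21.5% at 24 h and 64.0% at 48 h.

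**Figure D2:**
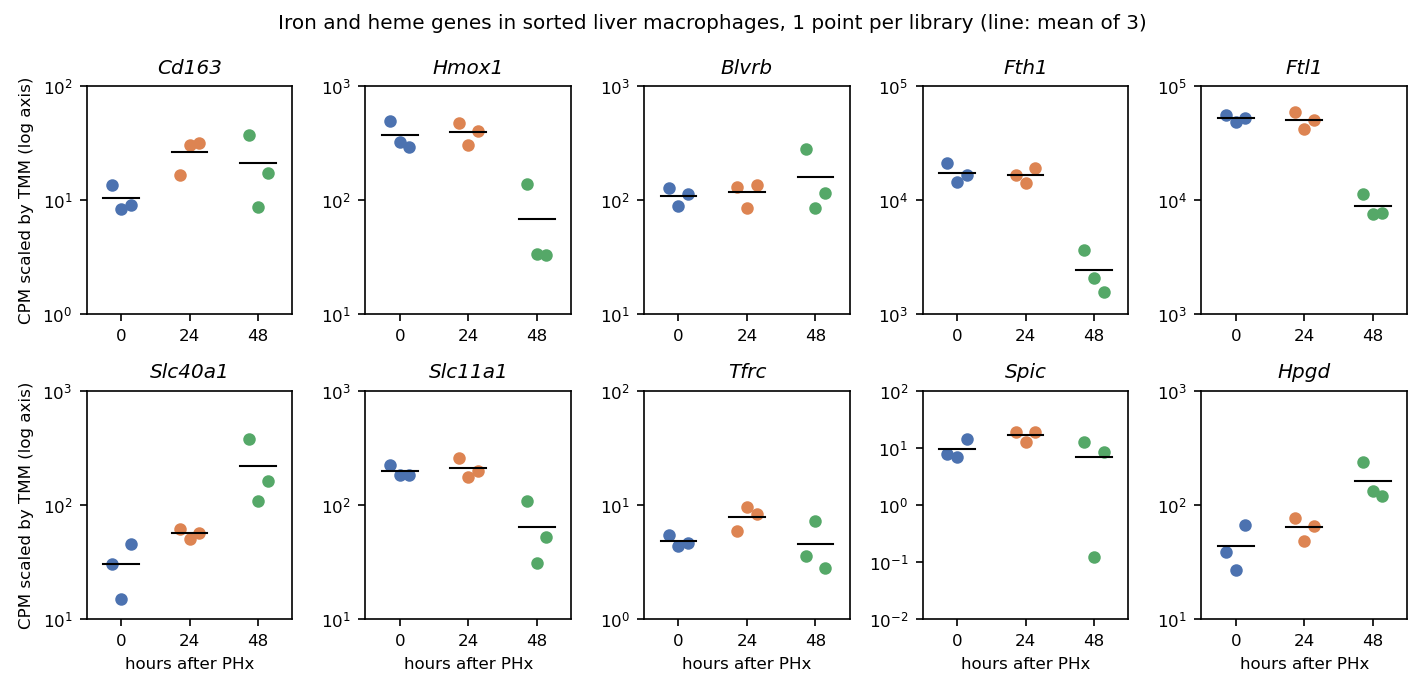
CPM scaled by TMM of the 10 members in each library (log axes whose range differs between panels) by hours after PHx, with the mean of 3 libraries as a line. Hmox1, Fth1, Ftl1 and Slc11a1 have all 48 h libraries below all earlier ones, Slc40a1 and Hpgd have all 48 h libraries above them, and Spic has 1 library at 0.125 CPM.

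At 24 h, 0 of the 10 members passed the test against 0 h in either direction, where 0.0495% of all tested genes were called higher and 0.0297% lower. Not passing the test does not show that a member was unchanged. The comparison sets the first day after PHx against 0 h. No sham-operated group was among the libraries, so at 24 h and 48 h the loss of liver cannot be told apart from surgery, anesthesia or time of collection. Without adjustment, 1 member was higher and 0 lower at p under 0.05, and neither DESeq2 nor limma-voom called any (0 members each). The storage and heme breakdown genes had fitted log2 fold changes near 0: 0.10 for Hmox1, 0.10 for Blvrb, -0.07 for Fth1 and -0.05 for Ftl1. For Cd163, Slc40a1 and Tfrc the lowest 24 h value exceeded the highest at 0 h, as it did for 8.37% of all genes, and for 0 members the 24 h values all lay below (8.92% of all genes).

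At 48 h against 0 h, 2 members rose (Slc40a1 and Hpgd; 9.86% of all tested genes were called higher) and 4 fell (Hmox1, Fth1, Ftl1 and Slc11a1; 8.95% were called lower). Blvrb, Cd163, Spic and Tfrc did not pass the test. The median over the 10 members was -0.28 on the log2 scale, against -0.04 over all genes. Against 24 h the same 2 members were called higher, where 10.2% of all genes were, and the same 4 lower, where 9.6% were. These comparisons share the 48 h libraries. The libraries did not overlap for 2 members above and 4 below at 48 h against 0 h (16.5% and 19.7% of all genes) and for 2 above and 5 below against 24 h (17.2% and 18.4%).

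**Figure D3:**
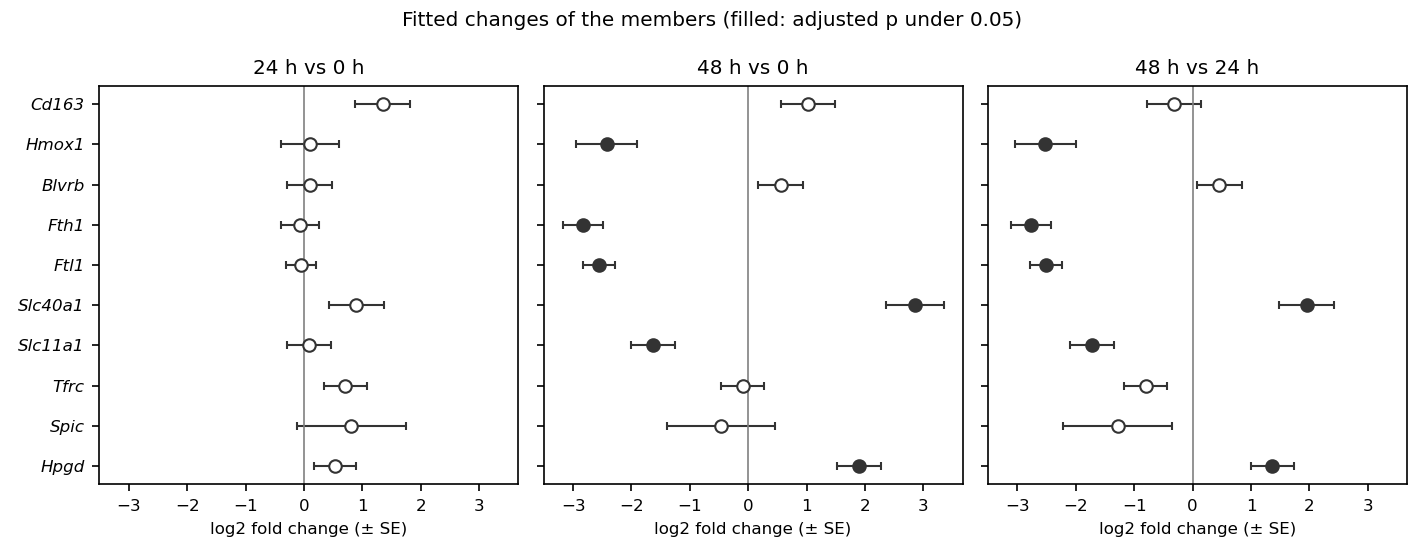
Log2 fold changes of the members from the edgeR fit in the 3 comparisons, with standard errors as bars and filled points for an adjusted p under 0.05. No point is filled at 24 h against 0 h, and at 48 h Slc40a1 and Hpgd lie to the right of 0 and Hmox1, Fth1, Ftl1 and Slc11a1 to the left.

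Cd163 (ENSMUSG00000008845), the scavenger receptor for hemoglobin bound to haptoglobin, was a low-level gene in these cells. Its level was 13.6, 8.31 and 9.15 CPM in the 0 h libraries, 16.7, 30.6 and 31.9 CPM at 24 h and 37.2, 8.71 and 17.3 CPM at 48 h. All 24 h libraries were above all 0 h libraries, and those of 48 h overlapped with both. The log2 fold change at 24 h was 1.35 (SE 0.47, edgeR adjusted p = 0.477), the largest of the 10 members in that comparison. At 48 h against 0 h it was 1.03 (SE 0.47, adjusted p = 0.158), and 1.45 (adjusted p = 0.0312) without 48 h replicate 2. Hp, which encodes haptoglobin, had a mean of 1461 CPM at 0 h and 217 CPM at 48 h, and fell by 2.75 on the log2 scale (adjusted p = 7.79e-05).

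Hmox1 (ENSMUSG00000005413), the inducible heme oxygenase, was measured at 491, 322 and 292 CPM at 0 h and at 475, 307 and 406 CPM at 24 h. At 48 h it was measured at 139, 33.9 and 33.2 CPM. The first pair of times overlapped, and every 48 h library was below every earlier one, with replicate 1 well above the other two. Hmox1 fell at 48 h by 2.42 on the log2 scale against 0 h (SE 0.52, edgeR adjusted p = 0.00927), a 5.36-fold lower level. Without 48 h replicate 1 the log2 fold change was -3.46 (adjusted p = 0.000101). Against 24 h it was -2.52 (SE 0.53, adjusted p = 0.0071), and -3.56 (adjusted p = 0.000112) without 48 h replicate 1. Hmox2, the constitutive heme oxygenase, differed at 48 h by 0.05 (adjusted p = 0.928).

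Blvrb (ENSMUSG00000040466), a biliverdin reductase with broader flavin reductase activity, was measured at 128, 88.7 and 113 CPM at 0 h, 131, 86.2 and 135 CPM at 24 h and 282, 85.3 and 115 CPM at 48 h. The 3 times overlapped, and only 48 h replicate 1 stood above the rest. Its log2 fold change was 0.55 at 48 h against 0 h (SE 0.39, edgeR adjusted p = 0.385) and -0.13 (adjusted p = 0.765) without that library. Blvra, the main biliverdin reductase, fell by 0.91 on the log2 scale, from 53.8 to 28.7 CPM (adjusted p = 0.00316). The ratio of Hmox1 to Blvrb counts within a library, which does not depend on scaling, was 2.59 to 3.85 at 0 h and 3.01 to 3.63 at 24 h, but at 48 h only 0.288 to 0.493. The heme oxygenase mRNA thus exceeded that of the reductase in counts in every library of the first times and in 0 libraries at 48 h, a comparison of counts and not of molecules.

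Fth1 (ENSMUSG00000024661), the ferritin heavy chain that oxidises iron for storage, was measured at 21227, 14458 and 16636 CPM at 0 h, 16717, 14081 and 19087 CPM at 24 h and 3671, 2084 and 1574 CPM at 48 h. All 48 h libraries were several times lower than all others. Fth1 fell at 48 h by 2.84 on the log2 scale against 0 h (SE 0.34, edgeR adjusted p = 0.000278), a 7.14-fold lower level, and by 2.77 against 24 h (SE 0.34, adjusted p = 0.000349).

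Ftl1 (ENSMUSG00000050708), the light chain that aids the growth of the iron core, was the most abundant of the 10 genes both per library and per kb. It was measured at 55838, 48572 and 52088 CPM at 0 h and at 59314, 41607 and 50089 CPM at 24 h. At 48 h the levels were 11252, 7548 and 7657 CPM, below every earlier library. Ftl1 fell by 2.56 on the log2 scale against 0 h (SE 0.27, edgeR adjusted p = 0.000126), a 5.92-fold lower level, and by 2.51 against 24 h (SE 0.27, adjusted p = 0.000155). The heavy to light chain count ratio was 0.298 to 0.380 at 0 h, 0.282 to 0.381 at 24 h and 0.206 to 0.326 at 48 h, and the times overlapped.

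Ferritin genes have processed copies in the mouse genome whose reads can be shared with the parent. How reads that fit both were counted is not given, so the size of this uncertainty is not known. The shares that follow cover only reads assigned to a copy. The 3 listed copies of Ftl1 held 4.75% to 7.25% of the summed level of Ftl1 and its copies in a library, and the 11 listed relatives of Fth1 held at most 0.0299%. With the copies added to the parents, the calls of both genes were unchanged in every comparison. Reads counted for neither would not be seen in this way. Ftl2-ps was measured at 1145 to 1378 CPM at 0 h and at 41.1, 202 and 308 CPM at 48 h.

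Slc40a1 (ENSMUSG00000025993), ferroportin, had the largest rise of the 10 members. It was measured at 30.1, 15.03 and 45.4 CPM at 0 h, 62.0, 50.1 and 56.7 CPM at 24 h and 381, 107 and 164 CPM at 48 h. The 3 times did not overlap, and the order from low to high was 0, 24 and 48 h. Only the step to 48 h passed the test: the log2 fold change against 0 h was 2.85 (SE 0.49, edgeR adjusted p = 0.00256), a 7.21-fold rise, and against 24 h 1.95 (SE 0.48, adjusted p = 0.0163). That of 24 h against 0 h was 0.90 (SE 0.47, adjusted p = 0.848). Without 48 h replicate 1, which held the highest level, the rise over 0 h was 2.17 (adjusted p = 0.00415) and that over 24 h 1.26 (adjusted p = 0.0439). The call against 24 h was lost without any 1 of the 24 h libraries (log2 fold change 1.92 to 2.07, adjusted p = 0.0513 to 0.0632).

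Kupffer cells are known to express Slc40a1. Of their 12 tested markers, 6 rose and 0 fell at 48 h against 0 h, with 9.86% and 8.95% over all genes. Against 24 h 1 rose and 1 fell, with 10.2% and 9.6% over all genes. These were Clec1b, with a log2 fold change of 1.96, and Marco, with -3.12 (edgeR adjusted p = 0.00544 and 0.0112). The summed level of the Kupffer cell markers was 522 to 1203 CPM at 0 h, 1863 to 2442 CPM at 24 h and 1504 to 5319 CPM at 48 h. Replicate 1 was again the highest, and 48 h overlapped with 24 h. Within a library, the ratio of Slc40a1 to Adgre1 counts was 0.116 to 0.355 at 0 h, 0.362 to 0.482 at 24 h and 1.53 to 1.73 at 48 h, with no overlap between the 3 times. Its ratio to Clec4f, the lectin that marks Kupffer cells, was 0.151 to 0.211, 0.132 to 0.152 and 0.184 to 0.434, and 48 h overlapped with 0 h. Clec4f itself rose at 48 h against 0 h by 2.51 on the log2 scale (edgeR adjusted p = 0.0296). These reference genes were chosen after seeing the data. The share of the rise that goes with Kupffer cells was not tested.

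Slc11a1 (ENSMUSG00000026177), known as Nramp1, moves iron and other metals out of the phagosome and is known for resistance of mice to intracellular bacteria. It was measured at 225, 185 and 185 CPM at 0 h, 259, 175 and 198 CPM at 24 h and 108, 31.2 and 52.4 CPM at 48 h. Every 48 h library was below the rest. Slc11a1 fell at 48 h by 1.63 on the log2 scale against 0 h (SE 0.38, edgeR adjusted p = 0.0132) and by 1.72 against 24 h (SE 0.38, adjusted p = 0.0099). The call against 0 h was lost without 0 h replicate 1 (log2 fold change -1.47, adjusted p = 0.0648) or 48 h replicate 3 (-1.45, adjusted p = 0.0604) and with library totals in place of TMM (-1.20, adjusted p = 0.068). Without 48 h replicate 1 it was -2.25 (adjusted p = 0.00065), and -2.34 against 24 h (adjusted p = 0.000562). The ratio to Adgre1 counts was 1.31 to 1.44 at 0 h, 1.26 to 2.01 at 24 h and, at 48 h, 0.489 to 0.491. The ratio to Cd68, another macrophage gene, was 0.151 to 0.196, 0.175 to 0.208 and 0.123 to 0.161. Here 48 h overlapped with 0 h and lay below every 24 h library. Cd68 itself fell at 48 h by 1.48 on the log2 scale (adjusted p = 0.0169).

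Tfrc (ENSMUSG00000022797), the transferrin receptor that brings iron into the cell and bears the 4 hairpins shown above, was the least abundant member per kb. It was measured at 5.40, 4.41 and 4.68 CPM at 0 h, 5.86, 9.58 and 8.29 CPM at 24 h and 3.601, 7.17 and 2.80 CPM at 48 h. All 24 h libraries were above all 0 h libraries, by a log2 fold change of 0.71 that did not pass the test (SE 0.37, edgeR adjusted p = 0.857). The difference of 48 h from 0 h was -0.10 (SE 0.37, adjusted p = 0.903) and from 24 h -0.81 (SE 0.37, adjusted p = 0.162). Without 48 h replicate 2 the latter was -1.26 (adjusted p = 0.0238). Red cell precursors are known for high Tfrc. The erythroid sum, made up mostly of globin mRNA, was highest in that library at 169430 CPM. It was 42092 CPM in 48 h replicate 1 and 106595 CPM in replicate 3, which had the lowest Tfrc level. The part of erythroid RNA in the Tfrc level was not tested. The count ratio of Slc40a1 to Tfrc sets an exporter mRNA against an importer mRNA and does not measure the flow of iron. It was 3.41 to 9.69 at 0 h and 5.23 to 10.6 at 24 h. At 48 h it was 106, 14.96 and 58.5, above every earlier library.

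Spic (ENSMUSG00000004359) encodes Spi-C, the transcription factor that heme induces in monocytes and that red pulp macrophages of the spleen need. It was measured at 7.96, 6.85 and 14.4 CPM at 0 h, 19.2, 12.9 and 19.3 CPM at 24 h and 12.5, 0.125 and 8.50 CPM at 48 h. The low library, 48 h replicate 2, held 8 counts, and the other two held 1114 and 559. Spic was thus below every 24 h library at 48 h and overlapped with 0 h. The log2 fold change was 0.81 at 24 h against 0 h (SE 0.93, edgeR adjusted p = 1), -0.47 at 48 h against 0 h (SE 0.92, adjusted p = 0.792) and -1.28 at 48 h against 24 h (SE 0.93, adjusted p = 0.386). Without replicate 2 the difference of 48 h from 0 h was 0.16 (adjusted p = 0.809). The spread of Spic at 48 h, a coefficient of variation of 89.6%, was the largest of the 10 genes.

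Hpgd (ENSMUSG00000031613) encodes the enzyme that inactivates prostaglandins. It was measured at 38.3, 26.7 and 67.2 CPM at 0 h, 76.5, 48.6 and 65.8 CPM at 24 h and 240, 131 and 119 CPM at 48 h, where all libraries were above the rest. Hpgd rose at 48 h by a log2 fold change of 1.89 against 0 h (SE 0.38, edgeR adjusted p = 0.00574), a 3.71-fold rise, and of 1.36 against 24 h (SE 0.37, adjusted p = 0.026). The second call was lost without any 1 of the 24 h libraries (1.24 to 1.56, adjusted p = 0.0504 to 0.0946) or without 48 h replicate 1 (0.97, adjusted p = 0.0772).

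**Figure D4:**
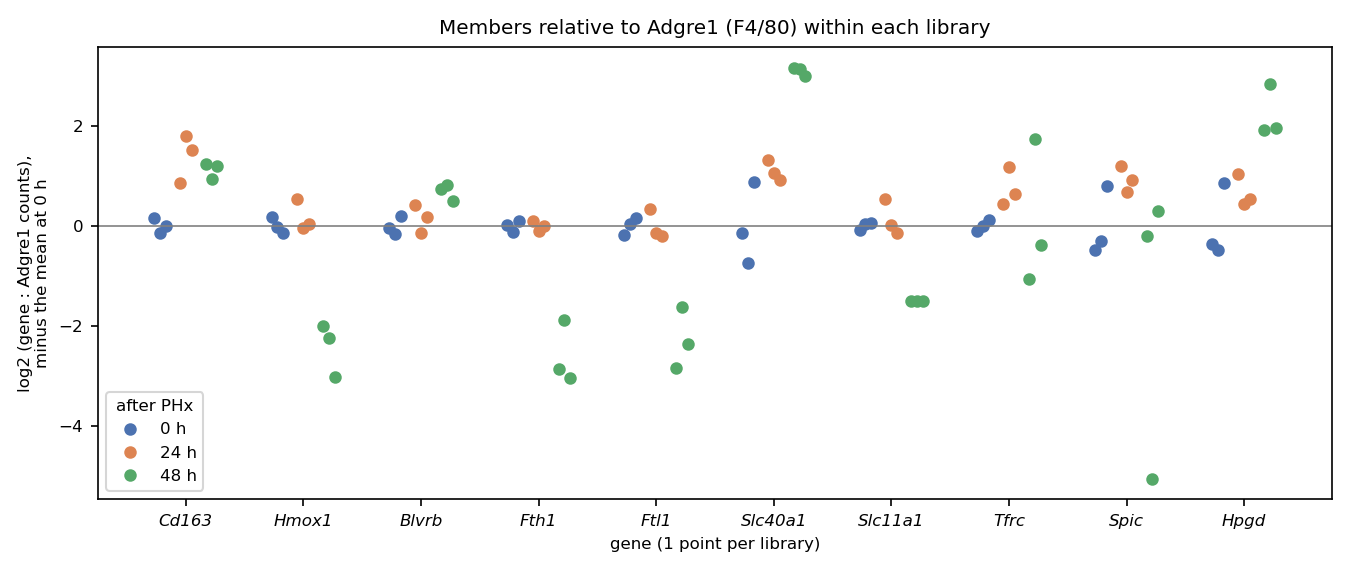
Log2 ratio of each member's counts to those of Adgre1 (F4/80) in the same library, minus the mean of the 0 h libraries, 1 point per library. At 48 h Hmox1, Fth1, Ftl1 and Slc11a1 lie below all earlier libraries, and Blvrb, Slc40a1 and Hpgd above them.

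Relative to Adgre1 counts, 4 members lay above all 0 h libraries at 48 h and 4 below, 2 overlapping. The 4 above were Slc40a1, Hpgd, Blvrb and Cd163. For Blvrb the ratio was 0.685 to 0.882 at 0 h and 1.08 to 1.34 at 48 h, and for Cd163 0.0641 to 0.0790 and 0.137 to 0.168. The 4 below were those called lower in the fit, with Ftl1 at 325 to 407 times the Adgre1 count at 0 h and 50.9 to 119 times at 48 h. Hmox1 went from 2.29 to 2.86 at 0 h to 0.311 to 0.629 at 48 h. With Csf1r, the receptor of the macrophage growth factor, as the reference the counts were again 4 above and 4 below, and with Cd68 they were 5 above and 3 below. With Clec4f they were 0 above and 6 below. Clec4f itself rose at 48 h against 0 h by 2.51 on the log2 scale (edgeR adjusted p = 0.0296), which lowers the ratio of any gene that rose less. Hmox1, Fth1 and Ftl1 lay below all 0 h and all 24 h libraries with each of the 4 references, and Slc11a1 below all 0 h libraries with all but Cd68. Blvrb was above with Adgre1, Csf1r and Cd68 and below with Clec4f, and Slc40a1, Hpgd and Cd163 were above with the first 3 and overlapped with Clec4f. The references were chosen after seeing the data, and no test was made. No share over all genes was computed for these ratios, and a reference that itself moved shifts the ratios of all genes. The counts of members above and below are therefore a description only.

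The count ratio of Cd163 to Slc11a1, a scavenger receptor against a phagosomal transporter, separated the 3 times. It was 0.0604, 0.0450 and 0.0495 at 0 h, 0.0643, 0.175 and 0.161 at 24 h and 0.344, 0.279 and 0.330 at 48 h, with each time above the one before.

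The members' profiles over the 9 libraries fell into groups, given here as a description, since the libraries share their time and their content of other cells. Pearson's r of log2 CPM was 0.99 for Fth1 with Ftl1, 0.98 for Hmox1 with Slc11a1 and 0.97 for Slc40a1 with Hpgd. It was -0.77 for Ftl1 with Hpgd, the lowest of the 45 pairs. Of genes with a mean of at least 10 CPM, those most like Hmox1 were Cox5b, Actb and Uqcr11 (each r = 0.99), and those most like Slc40a1 were Tnfaip1 and Cadm1 (0.99) and Ephx1 (0.97). Those most like Cd163 were the complement gene C1qc and Pltp (0.89) and Tspan3 (0.88), and those most like Spic were Specc1l (0.97), Osgin2 and Aurkaip1 (0.96). For Hmox1 and Slc40a1 the 48 h libraries stood apart from the rest, so r there rests largely on the step to 48 h.

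Of 77 further genes of iron, heme and related pathways, 74 were tested. At 24 h against 0 h, 0 rose and 0 fell by edgeR, 9 were higher and 0 lower at p under 0.05 without adjustment, DESeq2 called 4 higher and limma-voom 0. At 48 h against 0 h, 13 rose (17.6%, with 9.86% over all genes) and 20 fell (27.0%, with 8.95%), with a median log2 fold change of -0.17. Against 24 h, 12 rose (16.2%, with 10.2% over all genes) and 20 fell (27.0%, with 9.6%).

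**Figure D5:**
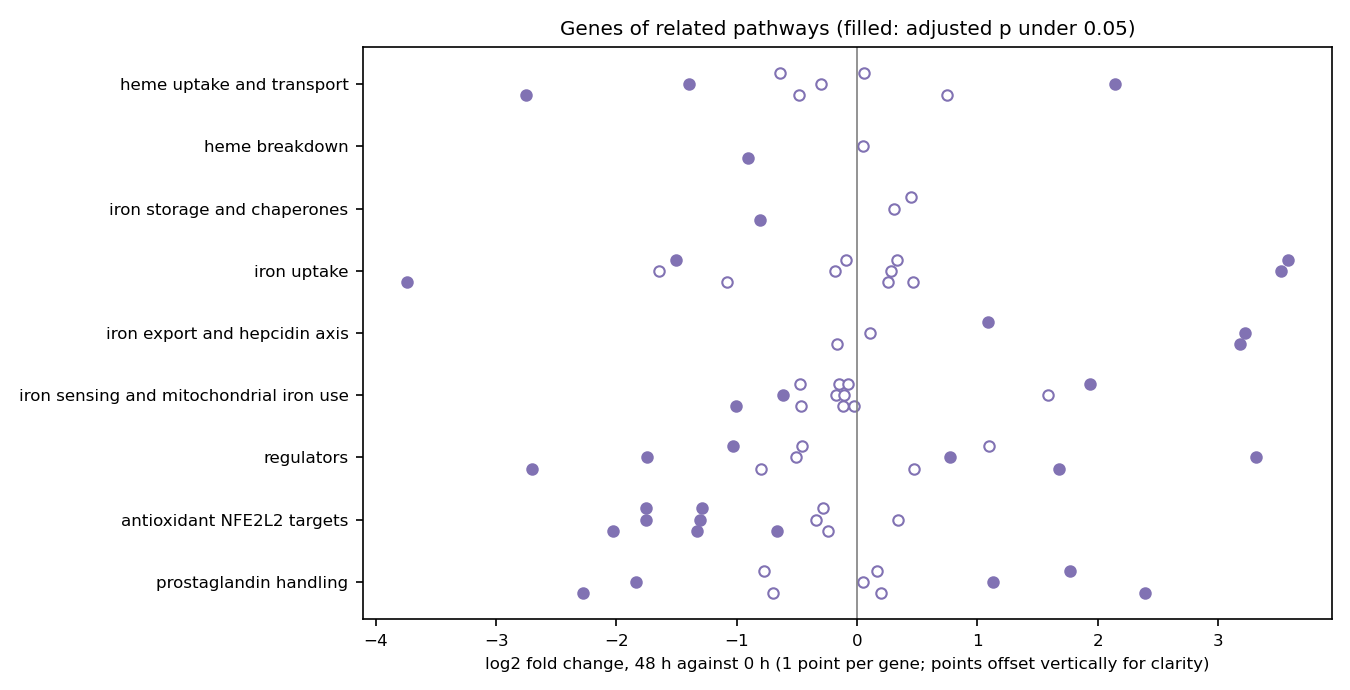
Log2 fold changes at 48 h against 0 h of 74 genes in 9 pathway lists, 1 point per gene, filled where the adjusted p from edgeR was under 0.05. In the antioxidant list 7 of 11 points are filled and all of them lie left of 0, and in the export list 3 of 5 are filled and lie right of 0. Over all genes 9.86% were called higher and 8.95% lower.

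Of 11 antioxidant genes under the factor NFE2L2, which also drives Hmox1 and the ferritins, 0 rose at 48 h and 7 fell against 0 h. The median of the list was -1.29, and the 7 were 63.6% of it, with 8.95% over all genes. Against 24 h 6 fell (54.5%, with 9.6% over all genes). Slc7a11, the cystine importer, went from 62.6, 68.5 and 61.1 CPM at 0 h to 10.6, 21.7 and 14.96 CPM at 48 h (log2 fold change -2.02, edgeR adjusted p = 0.0011). Srxn1, which repairs oxidised peroxiredoxins, fell by 1.76 on the log2 scale (adjusted p = 0.00133) and Txnrd1, thioredoxin reductase, by 1.33 (adjusted p = 0.000779). Prdx1, G6pdx, Taldo1 and Gpx4 were the others that fell, and Nqo1, Gclm, Gclc and Osgin1 did not pass the test. Nfe2l2 itself differed by -0.46 on the log2 scale at 48 h against 0 h (adjusted p = 0.143) and fell by 0.91 against 24 h (adjusted p = 0.00912). The part of NFE2L2 in the levels of the members was not tested.

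Among the regulators, 3 of 11 rose and 3 fell at 48 h against 0 h (27.3% each, with 9.86% and 8.95% over all genes). Hif1a, the oxygen-sensing factor, was measured at 88.2, 72.2 and 92.3 CPM at 0 h, 131, 159 and 143 CPM at 24 h and 24.6, 25.9 and 24.9 CPM at 48 h, and fell by 1.74 on the log2 scale (edgeR adjusted p = 7.03e-05). Epas1, which encodes the related factor HIF-2α and is abundant in endothelial cells, went from 7.36, 7.45 and 7.97 CPM to 66.9, 78.2 and 82.1 CPM (log2 fold change 3.32, adjusted p = 6.59e-06). Maf, a transcription factor of macrophages and other cells, rose by 1.68 (adjusted p = 0.000823). Mafg fell and Keap1, the inhibitor of NFE2L2, rose. Bach1, the heme-sensing repressor of Hmox1 and the ferritins, differed by -0.51 (adjusted p = 0.171).

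Of the iron export and hepcidin genes, 3 of 5 tested rose at 48 h against 0 h and 0 fell. Over all genes 9.86% rose and 8.95% fell. Bmp6, the signal by which endothelial cells raise hepcidin, went from 2.74, 2.00 and 2.61 CPM to 20.1, 27.6 and 21.2 CPM (log2 fold change 3.23, edgeR adjusted p = 2.41e-05). Hfe, a regulator of iron sensing, rose by 1.09 (adjusted p = 0.0178), and Heph, the ferroxidase hephaestin, rose by 3.18, from 0.443 to 4.03 CPM (adjusted p = 0.00285). Hamp, hepcidin, differed by -0.17 (adjusted p = 0.859). Endothelial marker sums moved with these genes, as given above, and their part was not tested.

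Of 12 tested iron uptake genes, 2 rose and 2 fell (16.7% each, with 9.86% and 8.95% over all genes). Slc39a8, a zinc and iron importer, rose by 3.52 on the log2 scale (edgeR adjusted p = 4.87e-05) and Ltf, lactoferrin, by 3.58 (adjusted p = 0.000159). Camp and Ngp, which like Ltf encode proteins of neutrophil granules, rose by 5.02 and 4.22 (adjusted p = 0.000418 and 0.000692). They were the 2 of 11 neutrophil markers that rose, and S100a8 and Mmp8 fell by 2.63 and 3.25 (adjusted p = 0.00134 and 0.000176). The summed neutrophil level was 5090 to 12762 CPM at 0 h and 1658 to 2886 CPM at 48 h. The part of neutrophil RNA in the Ltf level was not tested. Lcn2, which binds bacterial iron carriers, fell by 3.74 (adjusted p = 0.000305), from 383, 559 and 176 CPM to 34.2, 31.9 and 17.5 CPM, and Slc39a14, a zinc and iron importer of the same family as Slc39a8, fell by 1.503 (adjusted p = 0.0454). Of the heme uptake and transport genes Slc46a1, a folate transporter that also carries heme, rose by 2.15 (adjusted p = 0.000531), and Hp and Lrp1 fell. Of the storage genes Pcbp1, an iron chaperone for ferritin, fell by 0.81 (adjusted p = 0.0155).

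Of 12 genes of iron sensing and mitochondrial iron use, 1 rose (8.33%) and 2 fell (16.7%) at 48 h against 0 h, with 9.86% and 8.95% over all genes. Aco1 and Ireb2, which encode the iron regulatory proteins that bind the hairpins shown above, had log2 fold changes of -0.11 and -0.18 (edgeR adjusted p = 0.798 and 0.805). Fbxl5, the iron sensor that directs the decay of IRP2, fell by 1.01, from 47.9 to 23.8 CPM (adjusted p = 0.0187), and Cisd2, an iron-sulfur protein, by 0.62 (adjusted p = 0.0229). Slc25a37, mitoferrin of red cell precursors, rose by 1.93 (adjusted p = 0.0249), with 10.4, 66.1 and 25.1 CPM at 48 h, the order of the erythroid sums in these libraries.

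In the prostaglandin list that goes with Hpgd, 3 of 10 rose and 2 fell at 48 h against 0 h (30% and 20%, with 9.86% and 8.95% over all genes). Slco2a1, the importer that feeds prostaglandins to Hpgd, rose by 2.39 on the log2 scale (edgeR adjusted p = 0.000215) and Ptgs1 by 1.77 (adjusted p = 0.00103). Abcc4 rose by 1.13 (adjusted p = 0.0288). Ptgs2, the inducible cyclooxygenase, was measured at 37.2, 24.95 and 38.3 CPM at 0 h, 143, 137 and 138 CPM at 24 h and 2.43, 13.6 and 4.68 CPM at 48 h, and fell by 2.28 against 0 h (adjusted p = 0.0103). Its rise at 24 h did not pass the test (2.06, adjusted p = 0.216). Ptgr1 fell by 1.84 (adjusted p = 0.00298).

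Promoter windows of 250 bases before to 50 after a start (RefSeq, GRCm38.p6) were matched for 8 of the 10 members, in 11 windows, all but Hmox1 and Slc40a1. On both strands, the antioxidant response element TGACNNNGC was in 0 of the 11 windows and in 12.4% of all 32851 windows. The hypoxia core ACGTG was in 4, of Blvrb, Cd163 and Tfrc (19.6% of all; the 2 Tfrc windows overlap and share 1 match), the core GAGGAA of PU.1-type factors in 2, of Hpgd and Slc11a1 (28.3%), and the E-box CACGTG, which contains ACGTG, in 0 (7.15%). A match is a run of letters and not a site of binding, and no match says only that these letters are not in this window.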

How the data were processed

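The authors sorted F4/80+CD11b+ liver macrophages, extracted RNA with Trizol, and sequenced strand-marked (dUTP) paired-end libraries of RNA. The tools listed in the submitters' processing notes are featureCounts 1.5.0-p3, HISAT2 2.0.5 and CASAVA 1.8. For the build, annotation and strand setting: not given in the sources used here. The deposited unscaled counts are treated as estimated counts, because multiples of 4 made up 40.9% to 47.6% of values between 4 and 40 in each library. What 1 unit stands for was not established, and totals were not used for counting precision. All 9 columns of the table were used, 0 belonged to other samples, and no library was a copy of another.

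Symbols matched 52073 of 56691 gene IDs. Genes passing filterByExpr (minimum count 10; 20204 genes) entered 1 fit of edgeR 4.0.16 in R 4.3.3 (quasi-likelihood, TMM scaling, time alone as a factor), with Benjamini-Hochberg adjustment over all of them and a threshold of 0.05. Means and SDs are over 3 libraries. Fold changes are fitted values. The fit was also run on simulated data, with the outcome not reported here. Members and gene lists were chosen with earlier results of these data known. Named genes were all members, pathway genes past the threshold at 48 h against 0 h, others that were abundant or whose role bears on a member, markers given beside a result, both chosen after their values were seen, and for Hmox1, Slc40a1, Spic and Cd163 the 3 genes of highest correlation with log2 CPM (prior count 2). One gene of the regulator list is counted but not reported here by name.

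Alternatives were RLE factors, library totals only, mitochondrially encoded genes left out, no filter, a minimum of 10 counts in all libraries, DESeq2 1.42.0, voom of limma 3.58.1, only the libraries compared, a replicate block, counts divided by 4, ferritin copies added to their parents, each library left out, and, chosen after seeing the data, globin genes left out.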

Additional observations from a re-analysis of the deposited data

How the results depend on the processing

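Of 627 log2 fold changes of members under other settings, 596 kept their direction and side of the threshold. The exceptions rest mostly on single libraries. With library totals in place of TMM, which moved the median of all genes by 0.37 at 48 h against 0 h and by 0.41 against 24 h, Tfrc at 48 h against 0 h was 0.22 and Cd163 at 48 h against 24 h 0.15, both turned in direction, Slc11a1 lost both calls at 48 h, and the share of called genes that were higher went from 52.4% to 77.7% (48 h against 0 h) and from 51.6% to 79.3% (against 24 h). Leaving out 1 library gave Blvrb -0.035 to 0.28 (24 h against 0 h), -0.13 to 0.91 (48 h against 0 h) and -0.23 to 0.82 (48 h against 24 h), Fth1 -0.19 to 0.11, Ftl1 -0.18 to 0.073, Hmox1 -0.045 to 0.37 and Slc11a1 -0.083 to 0.21 at 24 h against 0 h, Spic -1.18 to 0.16 and Tfrc -0.54 to 0.20 at 48 h against 0 h, and Cd163 -1.02 to 0.10 at 48 h against 24 h.

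With at least 10 counts in every library Spic was not tested, since 1 library held 8. Members called numbered 0 at 24 h against 0 h under every setting run. Leaving out 1 library gave 2 to 3 higher and 3 to 4 lower at 48 h against 0 h, and 0 to 2 higher and 4 to 5 lower against 24 h, with 0 higher without any 1 of the 24 h libraries and 1 without 48 h replicate 1.

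All genes called at 24 h against 0 h were 10 higher and 6 lower. They were 51 and 16 with at least 10 counts in every library, 267 and 107 with DESeq2, 5 higher with library totals, 2 lower with voom, 75 and 21 with no filter, 37 and 32 with only the libraries compared, and 0 to 18 higher and 0 to 14 lower without 1 library. At 48 h against 0 h, 1992 were higher and 1809 lower: 3195 and 919 with library totals, 1200 lower with only the libraries compared, and 1303 to 2087 and 977 to 2111 without 1 library. At 48 h against 24 h, 2070 were higher and 1940 lower: 3709 and 970 with library totals, and 1409 to 2259 and 1208 to 2201 without 1 library. Why these moved was not tested. With the replicate block 1 gene was called higher and 1 lower at 24 h against 0 h, and 0 calls of members changed. Same-numbered libraries did not deviate together (r of -0.015 to 0.070 over 9 pairs), so the numbers were not taken as a pairing.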
